A study of Mus musculus with 38 samples.

Results

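Ier2, Elk4, Erf and Nab2 are 4 regulators that act early after a cell receives a growth or stress signal, and their scores were followed here over the spleens of 6 inbred mouse strains. They were found through the RefSeq accession of their rows in the deposited table, with 1 spot each, among 21618 distinct probes of which 6518 could be paired with 1 gene symbol. Ier2 and Nab2 had been singled out because their scores as deposited had one sign in all 6 strains, and Elk4 because its scores differed between strains on arrays with the irradiated RNA in Cy5. What singled out Erf is not given in the sources used here. Ier2 had a value on 33 arrays and the others on 37 each, and all 4 passed the filter on missing values. The signs and sizes of their responses are therefore descriptions and carry no test.

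Each of the 38 two-colour arrays compared spleen RNA of a male mouse exposed to an acute X-ray dose of 10 rad, taken 3.5 hours after exposure, with spleen RNA of a sham-irradiated male of the same strain, both 10 to 14 weeks old by the labels. Strains, as labelled, were A/J (8 arrays), B6.C (8), BalbxJ (8, Balb/C in the study), BI6Jx (4, C57Bl6/J), C3H (6, C3H/HeJ) and DBA/2J (4). The irradiated RNA carried Cy5 on 19 arrays and Cy3 on the other 19, with equal numbers in every strain. The study gives a younger range of ages than the labels. According to the study, every pair of mice was hybridised again with the dyes swapped. BI6Jx and DBA/2J, with 4 arrays each, have fewer than the number of pairs it describes would give. No label ties an array to its swap, so the strain is the unit of replication below. RNA came from whole spleen, in which fewer cells of a type and less RNA per cell cannot be told apart.

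The deposited values are signed scores whose log base and direction are not stated, so they are given as scores on a positive or a negative side and never as folds. Such scores compare mice with mice and give no level of a marker in spleen. Of the possible values, 91.2% were present for B cell markers and 71.3% for T cell markers. The share was 97.7% for erythroid markers and 81.25% for pancreas markers. Whether the samples held RNA of pancreas was not tested. Array medians as deposited ran between -3.15 and 3.96, and each array was centred on its median. Between 50.9% and 91.9% of the probe spots had a value on an array. Arrays 50 and 53 (B6.C) and array 97 (BI6Jx) correlated below -0.3 with the most other arrays of their own dye orientation. Array 97 did so with 8 (lowest r -0.658), array 50 with 4 and array 53 with 3. Arrays 86 and 88 (A/J) and array 95 (BI6Jx) did so with 2 each (lowest r -0.595, -0.658 and -0.570). Further arrays did so with 1. The members' responses and components, and the correlations among Elk4, Erf and Nab2, are given with and without arrays 50, 53 and 97.

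An immediate early gene is transcribed within minutes of a stimulus without the need for new protein. One route to such genes runs through the ERK kinases, which phosphorylate ternary complex factors such as Elk4. These are ETS-domain proteins that sit beside serum response factor on the promoters of Fos, Egr1 and related genes. The same pathway carries its own brakes: Erf is an ETS-domain repressor that leaves the nucleus when ERK phosphorylates it, and Nab2 binds EGR factors and represses their targets. Ier2 is an immediate early gene of this kind and encodes a small nuclear protein. In spleen, antigen receptors of B and T cells are known to use the ERK pathway, and mice without Elk4 have a defect in the selection of T cells in the thymus.

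Promoters of Elk4, Erf and Nab2 are shown, and Ier2 had none among the promoter sequences used here. A promoter window holds 250 bases before and 50 after the start of transcription from RefSeq on the build GRCm38.p6. Capitals mark matches, on either strand, to an ETS core (CCGGAAGT), the binding site of EGR factors (GCGTGGGCG), the cAMP response element (TGACGTCA) or the CArG box of serum response factor. No matches overlapped.
Elk4, first start, chr1:132007370-132007669, plus strand: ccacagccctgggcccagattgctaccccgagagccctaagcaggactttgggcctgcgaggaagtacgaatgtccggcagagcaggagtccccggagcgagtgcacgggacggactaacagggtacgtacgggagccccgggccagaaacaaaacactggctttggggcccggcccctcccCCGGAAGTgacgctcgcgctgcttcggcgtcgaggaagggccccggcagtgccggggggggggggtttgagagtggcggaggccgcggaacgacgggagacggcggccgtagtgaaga
Elk4, second start, chr1:132007852-132008151, plus strand: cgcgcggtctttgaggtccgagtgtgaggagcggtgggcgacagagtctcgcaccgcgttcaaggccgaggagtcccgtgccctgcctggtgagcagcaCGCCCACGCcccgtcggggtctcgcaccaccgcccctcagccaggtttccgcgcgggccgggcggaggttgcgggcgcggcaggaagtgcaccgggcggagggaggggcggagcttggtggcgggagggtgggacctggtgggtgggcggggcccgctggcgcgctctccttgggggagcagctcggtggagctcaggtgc
Erf, chr7:25250709-25251008, minus strand: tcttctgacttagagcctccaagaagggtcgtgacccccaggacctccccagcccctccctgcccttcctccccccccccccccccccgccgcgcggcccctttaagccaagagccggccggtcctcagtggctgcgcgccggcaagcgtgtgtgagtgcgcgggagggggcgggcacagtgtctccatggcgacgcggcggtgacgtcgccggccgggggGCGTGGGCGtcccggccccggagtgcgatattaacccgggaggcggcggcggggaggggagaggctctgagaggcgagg
Nab2, chr10:127666654-127666953, minus strand: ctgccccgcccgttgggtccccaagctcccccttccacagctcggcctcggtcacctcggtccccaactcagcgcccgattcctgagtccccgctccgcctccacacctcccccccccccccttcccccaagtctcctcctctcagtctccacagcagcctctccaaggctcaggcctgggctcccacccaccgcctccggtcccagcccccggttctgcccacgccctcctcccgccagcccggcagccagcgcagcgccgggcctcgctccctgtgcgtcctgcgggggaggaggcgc

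The first Elk4 window held 1 ETS core, at bases 183 to 190 of the window. An EGR site stood at bases 100 to 108 of the second Elk4 window, on the opposite strand, and another at bases 222 to 230 of the Erf window. Of all 32851 windows of this length, 3.89% held the ETS core, 0.612% the EGR site, 1.79% the cAMP response element and 1.63% a CArG box. The Nab2 window and the third Elk4 window, which is not printed, held none of these letters. GC content was 68.3% and 74.3% in the printed Elk4 windows and 74% in those of Erf and Nab2, against a median of 52.7% over all windows. A match is a description of the letters and was not tested as a binding site.

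Ier2 was the one member whose score turned with the dye. With irradiated RNA in Cy5 its centred score had a lowest value of -2.53, a median of -0.459 and a highest value of 1.45 over 16 arrays, 12 of them on the negative side. With irradiated RNA in Cy3 the lowest, median and highest values were -1.58, 1.04 and 1.83 over 17 arrays, 15 of them on the positive side. The ranges of the orientations overlapped.

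Within BalbxJ, Ier2 scored -1.79 and -1.25 on the Cy5 arrays that gave a value, and 1.04, 1.83, 1.43 and 0.306 on the Cy3 arrays. In B6.C the Cy5 arrays gave -2.45, -1.68, -0.545 and 1.45 and the Cy3 arrays 1.77, 1.52, 0.346 and 1.09. The orientations did not overlap in BalbxJ, and in B6.C they overlapped only through array 53, the Cy5 array at 1.45. A/J was closer to 0, with -0.684, 0.322, 1.32 and -0.165 in Cy5 and 0.735, 0.112, 0.0527 and 1.77 in Cy3. BI6Jx gave -0.573 and 0.334 in Cy5 and 0.847 and 1.14 in Cy3. DBA/2J gave -0.228 and -0.149 in Cy5 and 1.67 on the only Cy3 array with a value. In these 3 strains the Cy3 arrays had the higher mean, and in A/J the orientations overlapped. C3H was the exception: its Cy5 values were -2.53 and -0.373 and its Cy3 values -1.58 and -1.38, all on the negative side.

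**Figure D1:**
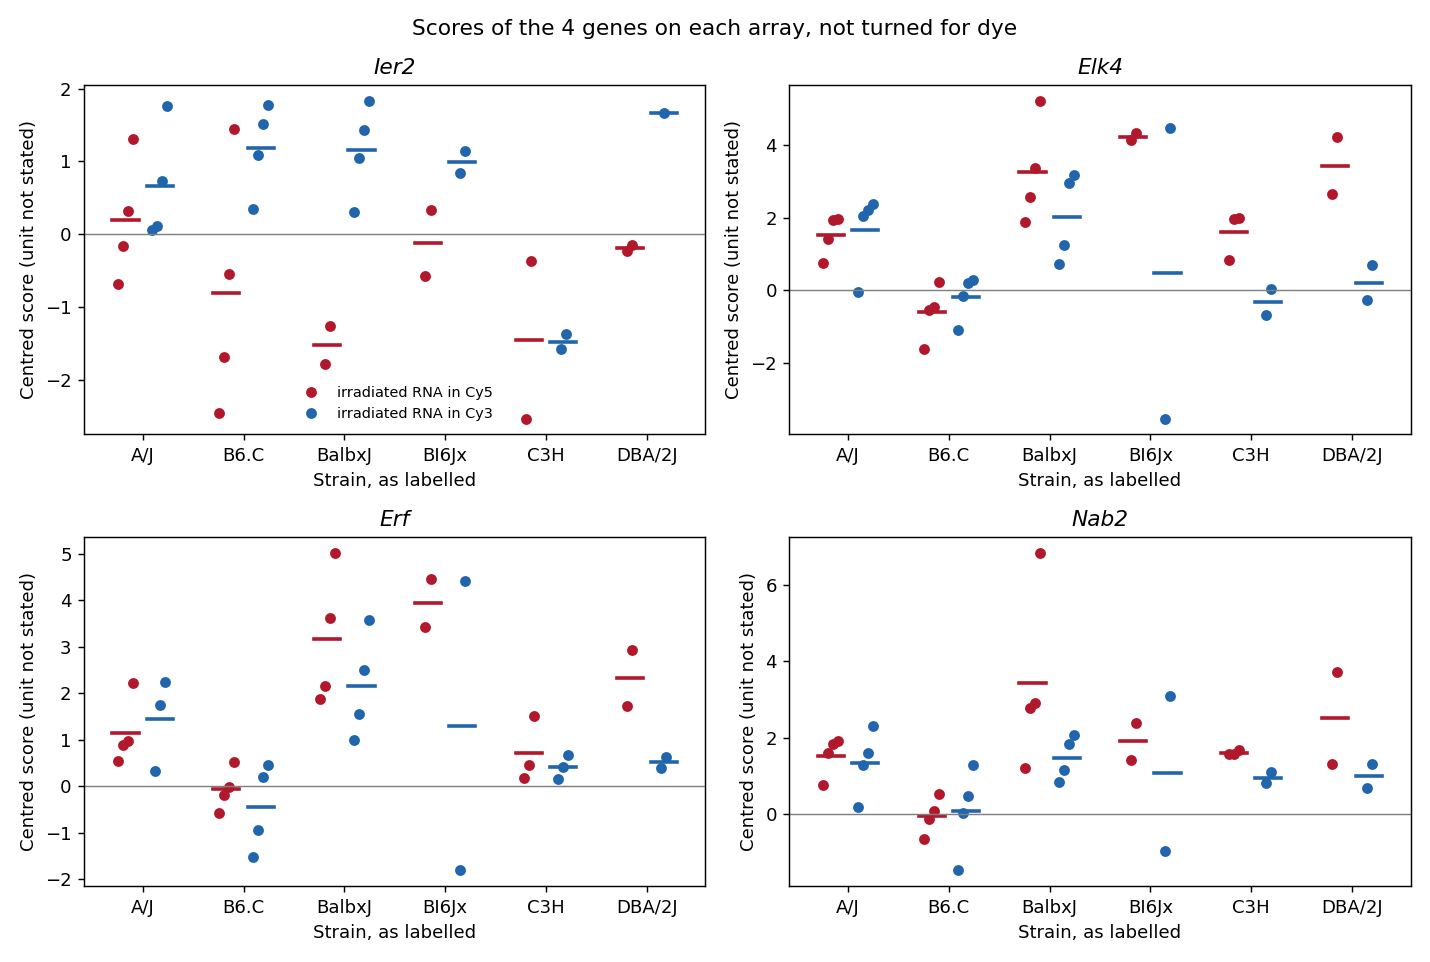
Centred score of Ier2, Elk4, Erf and Nab2 (y axis, unit not stated) on each array with a value, by strain (x axis), with irradiated RNA in Cy5 in red and in Cy3 in blue; a point is an array and a line the mean of a strain and orientation. Ier2 is mostly negative in Cy5 (12 of 16 arrays) and positive in Cy3 (15 of 17), whereas Elk4, Erf and Nab2 lie mostly above 0 in both orientations. Their values below 0 fall in B6.C and on array 97 of BI6Jx. For Elk4 they also fall on array 45 of A/J, array 28 of C3H and array 68 of DBA/2J.

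Turning the sign of the Cy3 arrays and averaging the orientations gives each strain a response. It is the part that follows the irradiated RNA if every score sets the dyes in the same order, which no source used here states. If scores were deposited as irradiated against sham, the unturned average would hold that part instead. Mean deposited scores of the Cy5 and Cy3 arrays had an r of 0.635 over the probes tested. For Ier2 the response averaged -0.674 ± 0.507 (SD, n = 6 strains). BalbxJ lay farthest from 0 at -1.34, followed by B6.C at -0.995, DBA/2J at -0.929, BI6Jx at -0.556, A/J at -0.235 and C3H at 0.0113. Every gap between neighbours in this order was smaller than the SD over strains. Without centring the mean was -0.618 ± 0.799, with all 6 strains on the negative side, which is the value the gene had been chosen on. Over all 14513 probes tested, 2.73% had a negative and 1.54% a positive response in all 6 strains after centring, and Ier2 was not among them because of C3H. As deposited, 0.11% of these probes had a negative and 0.303% a positive response in all 6 strains.

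The other 3 members did not turn. Elk4 had a lowest value of -1.61, a median of 1.96 and a highest value of 5.23 on 19 Cy5 arrays, 16 of them positive. On 18 Cy3 arrays its values were -3.55, 0.494 and 4.48, in the same order, with 12 positive. For Erf, the Cy5 arrays ran through -0.579, 1.50 and 5.03 (16 of 19 positive) and the Cy3 arrays through -1.81, 0.551 and 4.41 (15 of 18 positive). All of these ranges overlap between orientations, and the positive side held most arrays whichever dye the irradiated RNA carried. Nab2 had the most one-sided scores, with -0.656, 1.57 and 6.84 in Cy5 (17 of 19 positive) and -1.48, 1.12 and 3.09 in Cy3 (16 of 18 positive).

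By strain, the centred scores of Elk4 were highest in BI6Jx and BalbxJ. Each array compares mice of the same strain, so an order of strains by score gives no level of a gene in a strain. The BI6Jx arrays gave 4.15 and 4.34 in Cy5 and 4.48 and -3.55 in Cy3, the last on array 97. Elk4 scored 1.88, 2.59, 5.23 and 3.37 in Cy5 and 0.730, 3.19, 1.26 and 2.96 in Cy3 in BalbxJ. Apart from array 97, every array of these strains was on the positive side. B6.C was the strain nearest to 0, with -0.547, -0.467, 0.216 and -1.61 in Cy5 and 0.191, -1.10, 0.294 and -0.155 in Cy3. A/J gave 0.745, 1.94, 1.96 and 1.42 in Cy5 and -0.0366, 2.04, 2.39 and 2.22 in Cy3. C3H gave 0.840, 1.99 and 1.98 in Cy5 against 0.0371 and -0.672 in Cy3, and DBA/2J gave 4.23 and 2.65 in Cy5 against -0.281 and 0.694 in Cy3. In C3H and DBA/2J the Cy5 arrays lay wholly above the Cy3 arrays, while in A/J and B6.C the orientations overlapped.

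Erf followed the same order of strains. BI6Jx gave 4.46 and 3.42 in Cy5 and 4.41 and -1.81 in Cy3, where array 97 again supplied the negative value. BalbxJ gave 1.88, 2.15, 3.62 and 5.03 in Cy5 and 1.01, 1.56, 2.50 and 3.58 in Cy3. B6.C stayed near or below 0, between -0.579 and 0.532 in Cy5 and between -1.51 and 0.468 in Cy3. C3H gave 1.50, 0.457 and 0.186 in Cy5 and 0.676, 0.165 and 0.425 in Cy3, so that all 6 arrays of that strain were slightly positive. For DBA/2J, the values were 2.94 and 1.72 in Cy5 and 0.395 and 0.635 in Cy3. A/J lay between 0.547 and 2.23 in Cy5 and between 0.326 and 2.25 in Cy3. Every array of A/J, C3H, BalbxJ and DBA/2J with a value for this repressor was on the positive side.

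Nab2, the EGR corepressor, gave 1.22, 2.78, 2.92 and 6.84 in Cy5 and 1.15, 1.82, 0.825 and 2.07 in Cy3 in BalbxJ. In C3H it gave 1.57, 1.57 and 1.68 in Cy5 and 0.806 and 1.09 in Cy3. DBA/2J gave 3.72 and 1.32 in Cy5 and 1.30 and 0.687 in Cy3. All arrays of these 3 strains were positive, as were the 8 of A/J, which lay between 0.763 and 1.91 in Cy5 and between 0.183 and 2.30 in Cy3. BI6Jx gave 1.41 and 2.39 in Cy5, and 3.09 and -0.962 in Cy3. The 4 arrays of all strains on the negative side were array 97 and 3 arrays of B6.C, a strain that lay between -0.656 and 0.530 in Cy5 and between -1.48 and 1.29 in Cy3.

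The responses of these 3 genes were on average on the positive side. Elk4 averaged 0.801 ± 0.858 (SD, n = 6 strains), with BI6Jx at 1.89, DBA/2J at 1.62, C3H at 0.960, BalbxJ at 0.616, A/J at -0.0689 and B6.C at -0.206. Erf averaged 0.488 ± 0.541, positive in 5 strains and lowest in A/J at -0.142. Nab2 averaged 0.420 ± 0.397, positive in 5 strains, with B6.C at -0.0612 and BalbxJ highest at 0.986. Each mean was about as large as its own SD, and none of the 4 genes kept one sign in all 6 strains after centring. As deposited, Nab2 averaged 0.577 ± 0.537 with all 6 strains positive, Elk4 0.958 ± 1.04 with 4 positive, and Erf 0.589 ± 0.918 with 3 positive. Nab2 had been chosen on this one sign, and 0.303% of all probes tested were positive in all 6 strains as deposited.

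Array 97 weighed on these means. Without it the mean response was 0.467 for Elk4, 0.229 for Erf and 0.251 for Nab2. Without array 95, the other Cy3 array of BI6Jx, the same means were 1.14, 0.747 and 0.589. The sign of the mean held in both cases, but its size depended on which of these arrays was kept. With arrays 50, 53 and 97 all left out, the means were 0.470 for Elk4, 0.203 for Erf and 0.225 for Nab2, and -0.715 for Ier2. With their signs turned instead, the means were 0.527, 0.282 and 0.306 for these 3 genes and -0.576 for Ier2.

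**Figure D2:**
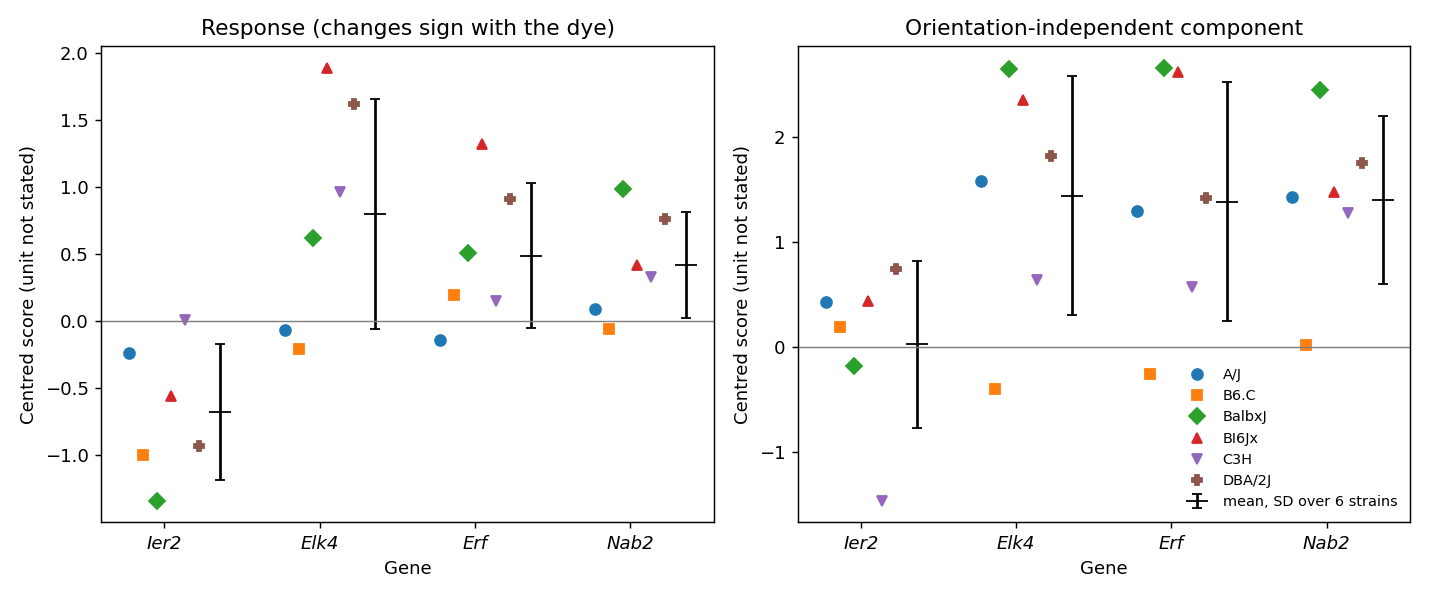
Response (left) and orientation-independent component (right) of each gene, as centred scores with no stated unit, with a symbol for each of the 6 strains and the mean with its SD over strains in black. The responses of Ier2 lie below 0 in 5 strains and at 0.0113 in C3H, with a mean of -0.674, and the components of Elk4, Erf and Nab2 average 1.44, 1.39 and 1.40 with B6.C lowest for each.

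The average of the Cy5 and Cy3 means, without turning, is the orientation-independent component: the part of the score that stays on the same side when the dyes are exchanged. It averaged 1.44 ± 1.14 for Elk4 (SD, n = 6 strains), 1.39 ± 1.14 for Erf and 1.40 ± 0.797 for Nab2, against 0.0248 ± 0.792 for Ier2. Nab2 was positive in 6 of 6 strains, Elk4 and Erf in 5 of 6 with B6.C the exception, and Ier2 in 4 of 6. BalbxJ was highest for each of the 3 genes, at 2.65 for Elk4, 2.67 for Erf and 2.45 for Nab2. B6.C was lowest for each, at -0.398 for Elk4, -0.252 for Erf and 0.0171 for Nab2. For Ier2 the lowest strain was C3H at -1.46 and the highest DBA/2J at 0.741.

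These components are built from the same Cy5 and Cy3 means as the responses and are given for the members without a test. With arrays 50, 53 and 97 left out they averaged 1.83 for Elk4, 1.68 for Erf, 1.63 for Nab2 and -0.0594 for Ier2. Over all probes, limma's moderated test of the 6 strain values against 0, with Benjamini-Hochberg adjustment over 14513 probes, called no probe on the positive side (0%) or on the negative side (0%), whereas 24.2% of all probes had an unadjusted p under 0.05.

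Large components on the positive side were shared by many probes. Among the 14513 tested, 823 had a component over 1, and 94.3% of these also had a response on the positive side, with a median response of 0.343. In the 5360 probes with a component within 0.2 of 0, where Ier2 lay, 29.7% had a positive response and the median was -0.0784. With arrays 50, 53 and 97 left out, 79.7% of the 1052 probes with a component over 1 and 34.2% of the 4328 near 0 had a positive response. These limits and this comparison were set after the values were seen. Positive responses made up 89.9% of the 2656 probes with a component of 0.4 to 1. They made up 41.2% of the 4454 probes with a component more than 0.2 below 0. The members were chosen with the response in view, so their sides are not read against these shares. Over all probes the median response was -0.00373 and 49.4% were positive.

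**Figure D3:**
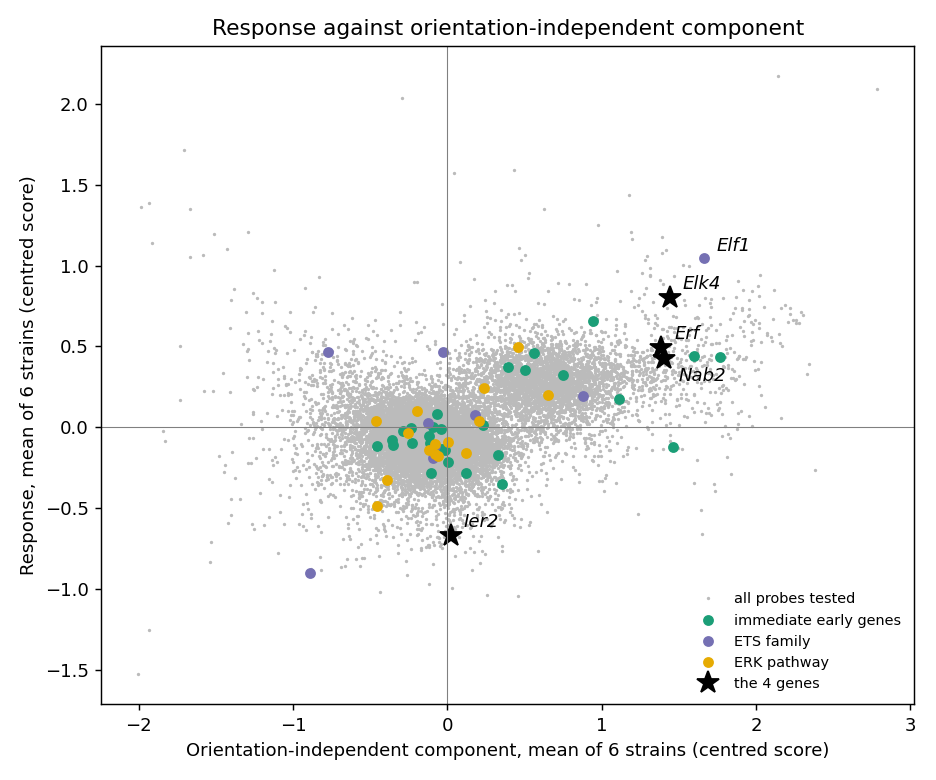
Mean response (y axis) against mean orientation-independent component (x axis) over 6 strains, both as centred scores with no stated unit, for all 14513 probes tested (grey), genes of 3 lists (coloured) and the 4 genes (black stars). Elk4, Erf and Nab2 lie to the right with positive responses, and Ier2 lies near a component of 0 with a response of -0.674. Of the 823 probes with a component over 1, 94.3% had a positive response (79.7% of 1052 without arrays 50, 53 and 97).

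Across the response itself, the limma test over 6 strains called none of the 14513 probes at an adjusted p under 0.05 (0%), while 1201 had an unadjusted p under 0.05 (8.28%). The members are not read against these shares, because Ier2 and Nab2 were chosen on the sign of the response, Elk4 on the Cy5 arrays that enter it, and Erf on an unknown ground. Elk4, which had been chosen for a strain difference with the irradiated RNA in Cy5, was tested for the same difference on the 19 Cy3 arrays. There limma's F test gave an adjusted p of 0.636 for Elk4 (unadjusted p = 0.347), while 229 of 9457 probes passed (2.42%). By the dye-swap design of the study, the Cy3 arrays hold the same mice and are no independent sample of animals. The spread within BI6Jx, between 4.48 on array 95 and -3.55 on array 97, enters this test. With the signs of arrays 50 and 97 turned, the adjusted p was 0.0217. That setting puts array 97 at 3.55, and whether the labels of these arrays are wrong was not tested. Array 53, with the irradiated RNA in Cy5, does not enter the test. With the values as deposited, the adjusted p was 0.0556.

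Elk4, Erf and Nab2 varied together from array to array. Over the arrays with values for both genes, Elk4 and Erf had a Pearson r of 0.877 (Spearman rho 0.878, n = 36), Erf and Nab2 0.814 (rho 0.814, n = 36) and Elk4 and Nab2 0.766 (rho 0.881, n = 37). After the mean of each strain and orientation was removed, r was 0.783, 0.781 and 0.651 for these pairs. Without arrays 50, 53 and 97 it was 0.853, 0.762 and 0.698. The arrays share mice through the dye swaps and share strains, so these correlations describe the arrays and carry no p. Ier2 had no such partner among the members, with r between -0.116 and -0.0683 against each of them over 32 or 33 arrays. With the values as deposited, where the array medians differ, r was 0.546 with Elk4, 0.616 with Erf and 0.698 with Nab2, beside 0.936 for Elk4 and Erf, 0.926 for Erf and Nab2 and 0.881 for Elk4 and Nab2.

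**Figure D4:**
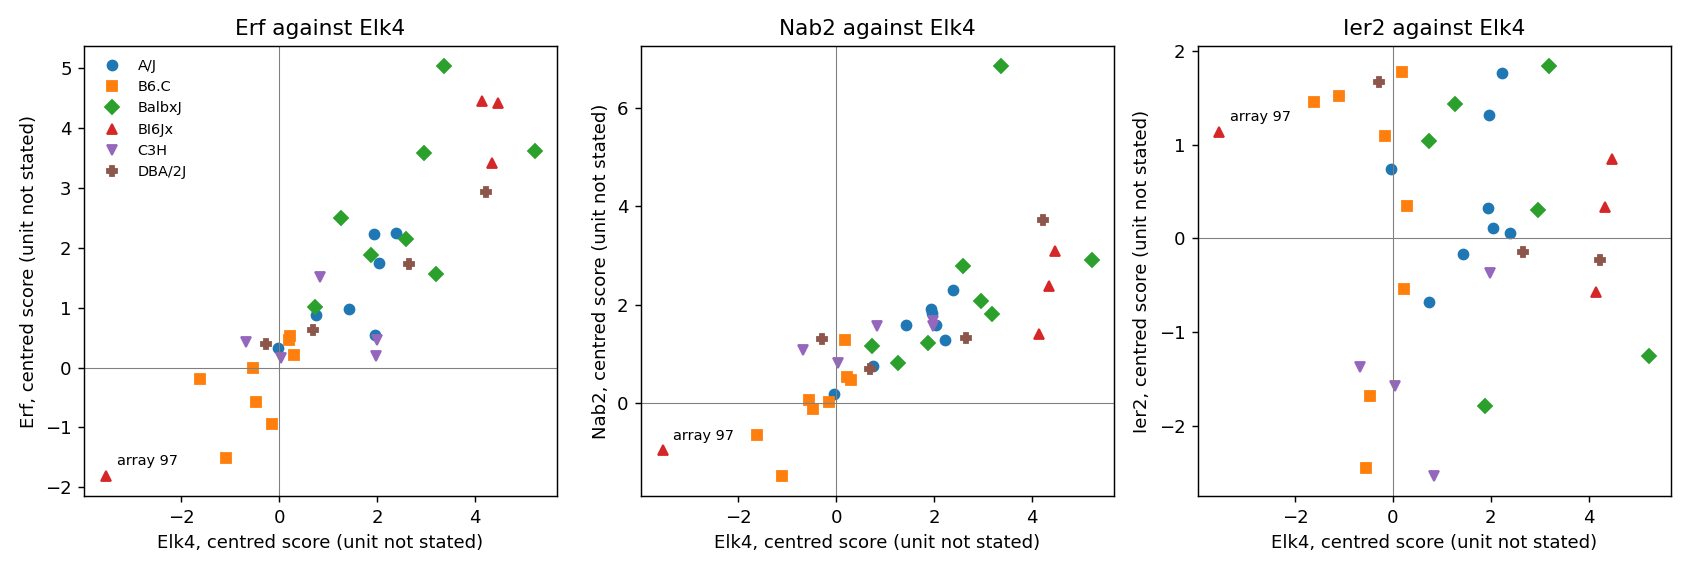
Centred scores of Erf, Nab2 and Ier2 (y axes) against that of Elk4 (x axes) on each array with both values, with a symbol for each strain and no stated unit. Erf and Nab2 follow Elk4 (r 0.877 and 0.766) from array 97 and B6.C at the lower left to BalbxJ and BI6Jx at the upper right, and Ier2 does not (r -0.0683).

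The pattern of these 3 genes was shared widely. Of 12571 probes compared with all of them, 603 had an r over 0.7 with each (4.80%), a limit set after the values were seen. Erf ranked high for Elk4, since only 0.644% of the probes compared had an r with Elk4 as large, against 3.86% for Nab2. The genes most like Elk4 were Pou3f2, a POU-domain factor of neural cells (r = 0.958, n = 37), H2ax, the histone variant phosphorylated around DNA breaks (r = 0.944, n = 32) and Park7, a redox-responsive protein (r = 0.937, n = 36). For Erf they were Fau, which encodes a ribosomal protein fused to a ubiquitin-like one (r = 0.970, n = 31) and Ppox, an enzyme of heme synthesis (r = 0.966, n = 35). Nab2 was most like Pglyrp1, a peptidoglycan recognition protein of granulocytes (r = 0.945, n = 37), Ubd, a ubiquitin-like modifier (r = 0.940, n = 34) and Snurf (r = 0.933, n = 35). The most alike to Ier2 were the growth factor gene Igf2 (r = 0.758, n = 29), Tktl1, a transketolase relative (r = 0.743, n = 29) and Mns1, a gene of germ and ciliated cells (r = 0.741, n = 31). The 95th percentile of r over all probes compared was 0.746 for Elk4, 0.788 for Erf, 0.772 for Nab2 and 0.467 for Ier2.

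Other measures of the arrays moved with the members to different degrees. The median of the 9 measured T cell markers correlated with Elk4, Erf and Nab2 at r of 0.703, 0.720 and 0.728 over 37 arrays, and that of the 4 measured macrophage markers at 0.417, 0.603 and 0.666. For the T cell list and Elk4, r was 0.465 in Cy5 and 0.847 in Cy3. The T cell list had array medians between -0.872 and 1.10, and the macrophage list between -0.855 and 3.57. Some of these medians rested on few markers. On array 87 only 2 T cell and 2 macrophage markers had a value, and on array 97 only 3 T cell markers, with a median of -0.825. Natural killer cell markers (6 measured, array medians between -0.992 and 2.64) correlated at 0.438, 0.420 and 0.462 with the same genes, and B cell markers at 0.126, 0.331 and 0.231. Neutrophil and erythroid markers had r between -0.0315 and 0.0296 with them, and pancreas markers between -0.222 and -0.137. These pooled values hid opposite signs in the orientations. Erythroid r was 0.0984 to 0.342 in Cy5 and -0.347 to -0.127 in Cy3. Pancreas r was 0.274 to 0.326 in Cy5 and -0.608 to -0.452 in Cy3, and neutrophil r -0.311 to -0.140 in Cy5 and 0.125 to 0.243 in Cy3. Ier2 had an r of -0.429 with the B cell list (9 of 11 genes measured, array medians between -0.850 and 0.928). By orientation it was -0.333 in Cy5 and -0.685 in Cy3. With a pancreas list (8 of 12 measured, between -3.48 and 4.17) r was 0.378, or 0.182 in Cy5 and 0.328 in Cy3. For Ier2, r was -0.331 with macrophage markers and -0.123 with erythroid markers (0.0517 in Cy5 and -0.627 in Cy3). With the remaining lists it lay between -0.0831 and -0.0306. The part of these cell types in the members' scores was not tested. Control spots correlated negatively with the 3 genes: the median of Alien control spots had an r of -0.356 with Elk4, -0.360 with Erf and -0.275 with Nab2, and that of buffer spots -0.352, -0.291 and -0.238. The mean of the Gapdh spots had an r of -0.287, -0.208 and -0.197. The SD of all probe spots on an array had an r of -0.433 with Ier2 and of 0.369 with Nab2.

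Around the members, the other genes of the pathway were described by lists. Of 51 further immediate early genes, 40 were measured and 28 tested, and 0 passed an adjusted p of 0.05 in the response in either direction. Their median response was -0.0389, with 11 positive and 17 negative, beside -0.00373 over all probes. Nearest to the threshold were Rhob, a small GTPase (response -0.284 ± 0.123, SE, n = 6), the kinase gene Pim1 (-0.349 ± 0.152) and Zfp36l1, an RNA-binding decay factor (0.458 ± 0.210), with an adjusted p of 0.564 for each in limma's test. Without array 97 BI6Jx had no response for Zfp36l1, and the mean over the other 5 strains was 0.270. Among genes chosen after their values were seen, Dusp1, the phosphatase that switches MAP kinases off, had a response of -0.0137, Nr4a1, a nuclear receptor induced by antigen receptors, had 0.0818 and Jun, a subunit of AP-1, had 0.657 with an adjusted p of 0.584. The orientation-independent components of the 28 genes had a median of -0.00513 with 14 positive, and those of Jund, Klf2 and Atf3, also chosen after their values were seen, were 1.60, 1.76 and 1.11.

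Among 24 other ETS genes, 18 were measured and 9 tested, with 0 passing in either direction, 6 positive and 3 negative and a median response of 0.0767. Elf1, an ETS factor of lymphoid and myeloid cells, had a response of 1.04 ± 0.295 (SE), positive in 6 of 6 strains, between 0.0172 and 2.19. Its adjusted p was 0.564 (unadjusted p = 0.00615), and with the values as deposited the response was 1.41 with an adjusted p of 0.0264. With arrays 50, 53 and 97 left out it was 0.676. Elf1 had values on 25 arrays, and its orientation-independent component was 1.66. Ets1, a factor of T and B cells, had a response of 0.466 ± 0.226 and the epithelial factor Spdef, with values on 22 arrays, had 0.467 ± 0.291 (adjusted p 0.564 and 0.579). C3H lay apart for Spdef at 2.20. Without array 25 C3H had no response for Spdef, and the mean over the other 5 strains was 0.120. Without array 28 of C3H the mean of Spdef was 0.269. Without array 68 DBA/2J had no response for Ets1, and the mean over the other 5 strains was 0.310.

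Serum response factor, the partner of Elk4, had a response of -0.0950 ± 0.176 (SE, adjusted p = 0.843) and was the only one of its list's 7 genes to be tested. Of 7 EGR factors and NAB corepressors apart from Nab2, 2 were tested: Nab1, the relative of Nab2, had 0.121 ± 0.112 and Egr4 had -0.136 ± 0.195. With 1 array left out, Srf ran between -0.151 and -0.0463 and Nab1 between 0.0132 (without array 29 of C3H) and 0.178. Egr4 ran between -0.235 (without array 95 of BI6Jx) and -0.0191 (without array 11 of BI6Jx). Without array 11 BI6Jx had no response for Egr4, so -0.0191 is a mean over the other 5 strains. In the ERK pathway 23 of 39 genes were measured and 15 tested, with 0 passing in either direction, 6 positive and 9 negative and a median of -0.0897. The smallest p belonged to the ERK-activated kinases Rps6ka4 (0.495 ± 0.200) and Rps6ka2 (-0.487 ± 0.214) and to Mapk7, or ERK5 (-0.327 ± 0.154), each with an adjusted p of 0.564. C3H lay apart for Rps6ka2 at -1.67, and without array 27 of that strain the mean was -0.137. Without array 97 the mean of Mapk7 was -0.184. These lists were read together with the share of 8.28% of all probes at an unadjusted p under 0.05: 2 of 28 immediate early, 1 of 9 ETS and 2 of 15 ERK pathway genes had one.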

How the data were processed

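The authors hybridised spleen RNA of irradiated and sham-irradiated mice on two-colour arrays of long oligonucleotides, removed poor or dim spots, subtracted local background and applied Lowess normalization according to the study. They deposited 1 signed score for each of 23232 spots and 38 arrays. No source used here gives its scale, log base or dye direction, or tells if it follows Lowess, so depth is unknown and the number of arrays limits the precision. No column of another series was present.

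Spots of a probe were averaged, control spots left out and each array centred on the median of its probe spots. Accessions were paired with symbols through RefSeq genes of GRCm38.p6, which served only to name them. Testing required a value on 19 arrays or more and in each orientation of every strain. The response of a strain is the Cy5 mean minus the Cy3 mean, divided by 2, and the orientation-independent component is their average. limma 3.58.1 in R 4.3.3 (lmFit, eBayes) tested 6 strain values against 0, and strains on the Cy3 arrays by F test for probes with at least 2 values per strain, with Benjamini-Hochberg adjustment and a limit of 0.05. The scripts were tested on simulated data. The design was written for log2 ratios; the scores took their place as they were.

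The members, lists and tests were chosen with earlier results of these data known. Named besides the members are, from each list, up to 5 genes passing the threshold and the 3 with the smallest p, and for each member the 3 genes with the highest Pearson r on at least 80% of its arrays. Dusp1, Nr4a1, Jun, Jund, Klf2 and Atf3 were named outside this rule, after their values were seen. A result under this rule is not reported here. Other centrings, filters, units, weights and averages were tried, arrays 50, 53 and 97 were left out or turned, and each array and strain was left out in turn. No library pairing was used, as the labels do not tie dye swaps together.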

Additional observations from a re-analysis of the deposited data

Results flagged for a closer look

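In 42 groups of 4 to 6 values examined, 3 held a value set apart from the others by a gap large for the group's range; chance sets about 1 in 20 apart. Elk4 on array 45 of A/J (irradiated RNA in Cy3) scored -0.0366, with the other 3 arrays between 2.04 and 2.39. The C3H response of Spdef was 2.20, with the other strains between -0.325 and 0.594. The C3H response of Rps6ka2 was -1.67, with the other strains between -0.535 and 0.114.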

How the results depend on the processing

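The mean responses of Ier2, Elk4, Erf and Nab2 kept their sign and moved by less than their SD over strains under every alternative run. Leaving out 1 array gave -0.764 to -0.584 for Ier2, 0.467 to 1.14 for Elk4, 0.229 to 0.747 for Erf and 0.251 to 0.589 for Nab2. Calls in the response were 31 as deposited and 0 under every other alternative run. Calls in the orientation-independent component were 4499 with arrays as units, where dye swaps count each pair of mice again, 1798 without B6.C and 1877 without C3H, and 0 under the other alternatives run. In these 3 settings the component was 1.28, 1.72 and 1.55 for Erf and 1.36, 1.68 and 1.43 for Nab2. Without 1 of the other strains it ran between 1.13 and 1.40 for Erf and between 1.19 and 1.40 for Nab2, and without 1 array between 1.13 and 1.65 and between 1.23 and 1.57. The component of Ier2 changed side to -0.0594 without arrays 50, 53 and 97, -0.194 with their signs turned, -0.0135 with medians, -0.0566 without A/J, -0.00768 without B6.C, -0.0575 without BI6Jx and -0.118 without DBA/2J, and ran between -0.118 and 0.115 with 1 array left out. Calls in the strain difference in Cy3 were 642 as deposited, 3 with arrays scaled and 901 with no minimum number of arrays. They were 457 with the signs of arrays 50 and 97 turned. With 1 array left out they ran between 4 and 287, with 4 without array 26 and 18 without array 28 of C3H, 139 without array 6 of BalbxJ and 134 without array 86 of A/J. Elk4 passed this F test with the signs of arrays 50 and 97 turned (adjusted p 0.0217). With arrays 50, 53 and 97 left out, or 1 Cy3 array left out in BI6Jx or DBA/2J, that test could not be run. Nor could it for Elk4 without array 26 or 28 of C3H. Srf was 0.0297 without B6.C, and Egr4 was 0.0897 as deposited, 0.0332 without arrays 50, 53 and 97 and 0.165 with their signs turned. The cause of these changes was not tested. No paired analysis was possible because the labels do not pair arrays and replicate numbers only name them.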
